A study of Mus musculus with 6 samples.

Results

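The 10 genes described here encode proteins of the central spindle and of cytokinesis: Kif23 and Racgap1, Ect2 and Anln, Prc1 and Kif20a, and Aurkb, Incenp, Birc5 and Cdca8. They were chosen by function, with earlier results of these data known, and found by gene symbol among 19938 named genes of an Affymetrix MoGene 1.0 ST array. All 10 were found, each with 1 probe set of its own. RNA came from whole fetal liver of mouse embryos on the C57BL/6J background at E14.5. The knockout (KO) group was 3 Tmod3-/- embryos, recorded as anemic and with a small fetal liver, and the wild type (WT) group was 3 Tmod3+/+ embryos recorded as normal. Each array held the RNA of a single embryo, and the series text calls the embryos independent. Tmod3 encodes tropomodulin 3, which caps the pointed ends of actin filaments. How the allele was made, and whether the embryos were littermates, is not stated in the labels. The comparison asked how the transcripts of the division machinery differ in liver that lacks Tmod3.

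At the end of mitosis a dividing cell builds an array of antiparallel microtubules, the central spindle, between the separating chromosomes. The chromosomal passenger complex moves there from the centromeres, centralspindlin gathers on the microtubules, and the guanine nucleotide exchange factor Ect2 switches on the small GTPase RhoA at the overlying cortex, where a ring of actin and myosin II then constricts. Most of these genes are transcribed mainly in G2 and M phase, and the fetal liver at this age is full of dividing erythroblasts. RNA of whole tissue was measured, so fewer dividing cells and less RNA per dividing cell cannot be told apart in any value below.

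Many genes with a peak in G2 and M phase carry a cell cycle genes homology region near the transcription start, often close to a CCAAT box that binds the factor NF-Y. The promoter sequences of the 7 genes found in a RefSeq table (build GRCm38.p6) are shown because the members were grouped by function, and what their promoters hold played no part in the choice. Each stretch runs from 80 bases before the start in that table to 50 bases after it, in the direction of the gene. Capitals mark the 6 letters TTTGAA of the homology region, or their reverse complement. The stretch of Kif23 lies at chr9:61946750-61946879 (minus strand) and that of Racgap1 at chr15:99651607-99651736 (minus strand). Ect2 lies at chr3:27153829-27153958 (minus strand), Anln at chr9:22389157-22389286 (minus strand) and Prc1 at chr7:80294371-80294500 (plus strand). Cdca8 lies at chr4:124936868-124936997 (minus strand) and Birc5 at chr11:117849157-117849286 (plus strand). For Ect2 and Prc1, which have 2 starts each in the table, the first was used.
Kif23: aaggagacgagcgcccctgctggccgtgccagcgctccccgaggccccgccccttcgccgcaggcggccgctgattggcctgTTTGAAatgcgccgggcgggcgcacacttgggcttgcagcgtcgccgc
Racgap1: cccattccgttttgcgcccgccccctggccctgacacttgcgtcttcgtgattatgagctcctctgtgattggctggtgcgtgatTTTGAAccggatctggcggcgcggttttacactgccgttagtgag
Ect2: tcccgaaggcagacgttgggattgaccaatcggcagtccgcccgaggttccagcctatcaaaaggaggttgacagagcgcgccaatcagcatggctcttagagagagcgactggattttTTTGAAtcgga
Anln: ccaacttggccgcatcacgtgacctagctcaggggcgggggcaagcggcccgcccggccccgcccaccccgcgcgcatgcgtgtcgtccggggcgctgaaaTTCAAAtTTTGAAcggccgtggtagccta
Prc1: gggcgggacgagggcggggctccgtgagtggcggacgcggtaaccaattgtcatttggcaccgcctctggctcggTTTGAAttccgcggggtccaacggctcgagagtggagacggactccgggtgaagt
Cdca8: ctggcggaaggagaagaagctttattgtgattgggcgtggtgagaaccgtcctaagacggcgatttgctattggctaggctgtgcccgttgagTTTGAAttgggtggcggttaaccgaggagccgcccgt
Birc5: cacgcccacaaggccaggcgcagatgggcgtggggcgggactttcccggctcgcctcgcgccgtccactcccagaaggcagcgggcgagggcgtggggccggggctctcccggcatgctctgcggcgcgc

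In windows of 250 bases before to 50 after the start, searched on both strands, TTTGAA was found in 6 of the 7 genes (85.7%) and in 18.1% of 27025 promoter windows of the same table. Birc5 had none and held the variant TTTAAA, 220 bases before the start, a motif found in 13.2% of all windows. CCAAT was present in 5 of 7 (71.4%, all windows 37.9%). In Kif23 the CCAAT box, on the opposite strand, began 7 bases before the start and TTTGAA at base 3 after it. The same pair stood 12 bases before and at base 6 in Racgap1. Anln had no CCAAT in the window and held TTTGAA on both strands, at bases 22 and 29. In Cdca8 1 of 4 CCAAT boxes shared a single base with TTTGAA. The E2F sites TTTCGCGC and TTTGGCGC (0.833% of all windows) and the GATA sites AGATAA and TGATAA (19.0%) were found in 0 of 7. Of the lists used further on, TTTGAA was present in 8 of 12 windows of other midzone and midbody genes, 4 of 10 of centromere partners, 7 of 19 of general proliferation genes, 2 of 6 of septins, 4 of 16 of abscission genes and 1 of 15 of contractile ring and RhoA genes. CCAAT was present in 14 of 19 windows of general proliferation genes and in 7 of 10 of centromere partners, shares close to that of the members. These matches describe letters in a window and do not show that a factor binds there.

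**Figure D1:**
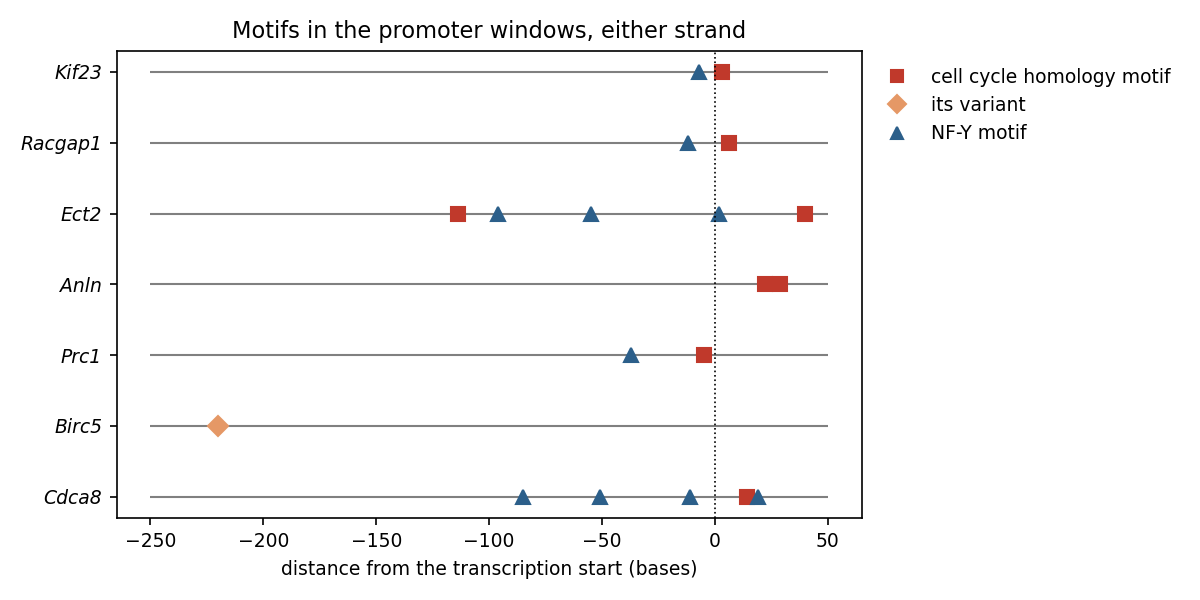
Position of motifs in the promoter windows of 7 genes, in bases from the transcription start (x axis), 1 line per gene. Red squares (the homology motif) lie at or just after the start in Kif23, Racgap1, Anln and Cdca8 and 5 bases before it in Prc1, Ect2 has 1 at 114 bases before and 1 at base 40 after the start, and Birc5 shows the variant only.

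Every array matched its genotype label at Tmod3 itself. Its log2 level was 1.32, 2.36 and 1.30 in KO livers and 4.49, 4.78 and 4.90 in WT livers (limma adjusted p = 0.0225), a call that ended when KO replicate 1 or 3 or WT replicate 2 or 3 was left out (adjusted p up to 0.255). The hepatocyte marker Alb, which encodes albumin, read 9.73, 9.84 and 8.74 in KO and 9.90, 10.1 and 10.1 in WT livers, and the transferrin receptor gene Tfrc of erythroblasts read 8.16, 8.18 and 7.72 in KO and 8.37, 8.92 and 8.77 in WT livers, so the defining markers of fetal liver were present on every array. Values below are levels as deposited, on a scale read as log2, and a fold change is the KO mean minus the WT mean. On this scale well expressed genes as a whole read lower in KO: the median log2 fold change was 0.0057 over all genes and -0.25 over the 2545 genes whose mean level was 3 or more, and it was -0.060 and -0.058 in the same 2545 genes after a second quantile normalization and after cyclic loess, which both make the arrays' distributions alike. The upper part of the distribution differed between arrays, with a 90th percentile of 3.67 to 3.82 in KO and of 3.68, 4.07 and 4.13 in WT livers. RMA, the named processing, usually ends with arrays of 1 common distribution, which these are not, and no label states the step behind the difference.

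Of the 10 genes, 7 had a log2 fold change below 0 and 3 above it, where 48.4% of all genes were below 0, and 0 had a limma adjusted p under 0.05, where 0.0150% of all genes did. At an unadjusted p under 0.05, Anln, Kif23 and Kif20a were lower and none was higher, where 6.44% of all genes were lower and 2.59% higher. The same 3 genes had every KO array below every WT array, as did 7.10% of all genes. With WT replicate 2 left out Anln alone was lower at this p, as were 788 of 19938 genes, against 1284 with all arrays. With WT replicate 1 left out 4 of the 10 were, and so were 2237 of 19938 genes. Dim genes weigh heavily in those shares. Among genes whose mean level was 2 or more, which leaves out Racgap1, 22.0% were lower at this unadjusted p and 18.2% had every KO array below every WT array, and 3 of 9 members were in each class. That p came from the fit to all genes. In a fit to the 4656 genes of this set alone, 702 were lower at an unadjusted p under 0.05, among them 2 members, Anln and Kif23. In that set 76.5% of genes had a fold change below 0, and 6 of the 9 members did. Among genes whose mean level was 3 or more, 26.6% were lower at this p, and 2 of 7 members were, so there the share of the members was near that of all genes. The median log2 fold change was -0.18 over the 10 genes, between the values for all genes and for well expressed genes. After a second quantile normalization 0 members were lower at an unadjusted p under 0.05, where 4.66% of all genes were, and 1 (Incenp) was higher, where 3.05% were. In the plot of every array, the 3 genes with separate groups stand out beside 7 in which KO and WT points interleave.

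**Figure D2:**
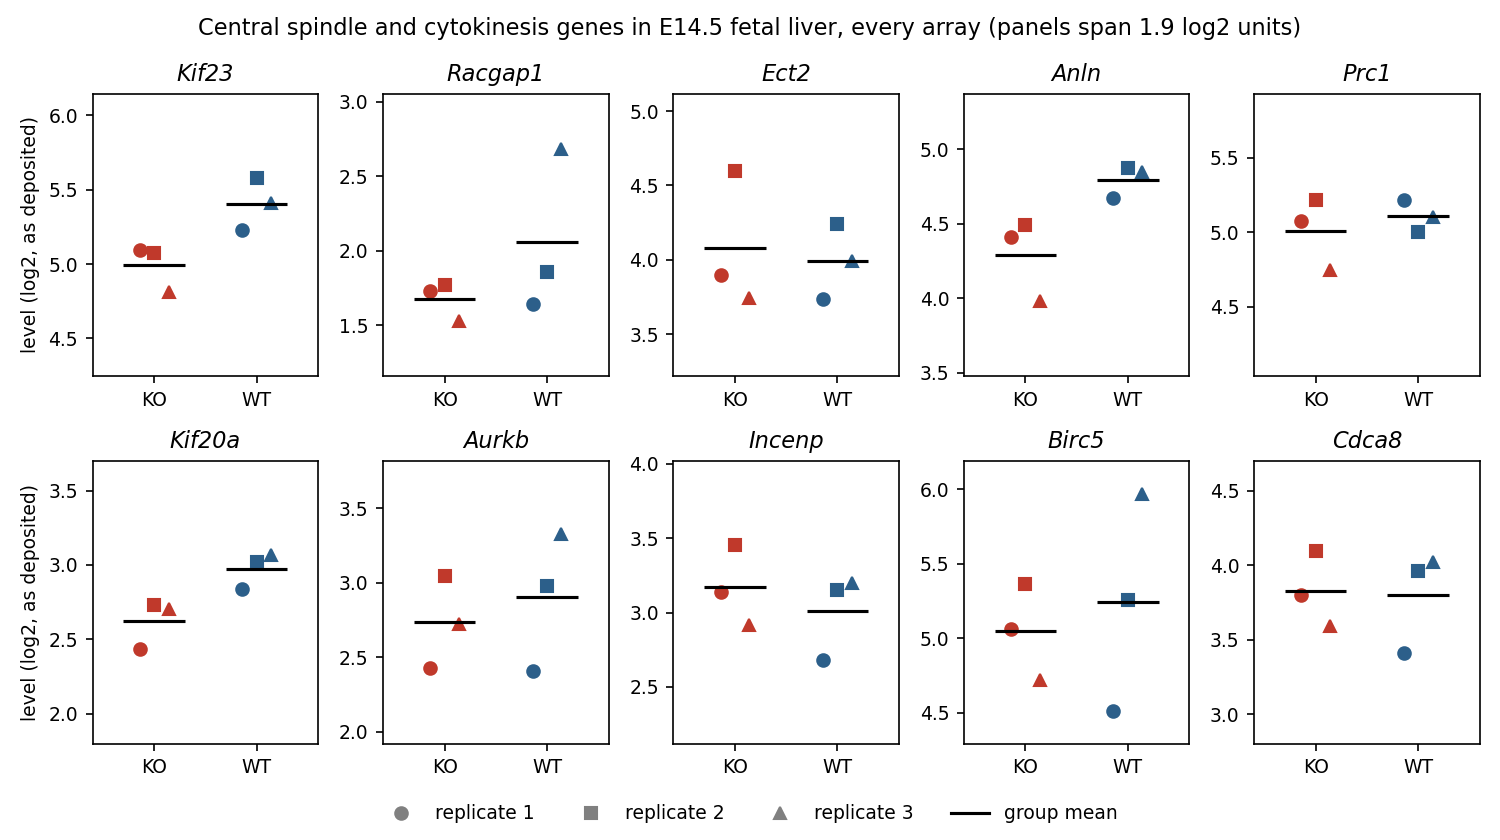
Log2 level (y axis, as deposited) of each of the 10 genes in 3 KO arrays (left, red) and 3 WT arrays (right, blue). Marker shapes give the replicate, horizontal lines the group means, and each panel spans the same number of log2 units. KO and WT points do not overlap for Kif23, Anln and Kif20a and overlap for the other 7 genes.

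Centralspindlin is made of the kinesin Kif23 (MKLP1) and the GTPase activating protein Racgap1 (MgcRacGAP), which bundles midzone microtubules with it and recruits Ect2. Kif23 (probe set 10594251) read 5.10, 5.08 and 4.81 in KO livers and 5.23, 5.58 and 5.41 in WT livers. All 3 KO arrays lay below all 3 WT arrays, with a gap of 0.13 between KO replicate 1 and WT replicate 1. The log2 fold change was -0.41 (standard error 0.13, 95% interval -0.71 to -0.11, limma adjusted p = 0.408, unadjusted 0.0140), so Kif23 did not pass the threshold. After a second quantile normalization it was -0.19, and KO replicate 1 (5.22) then lay above WT replicate 3 (5.15). Racgap1 (probe set 10432511) read 1.73, 1.77 and 1.53 in KO livers and 1.64, 1.85 and 2.69 in WT livers. These values are close to the array medians of 1.36 to 1.43, except for WT replicate 3, and the groups overlapped. Racgap1 had a log2 fold change of -0.39 (standard error 0.25, 95% interval -0.95 to 0.18, limma adjusted p = 0.729), and -0.074 without WT replicate 3. Its measured difference therefore rests on 1 array.

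Ect2 activates RhoA, and Anln encodes anillin, the scaffold that ties RhoA, actin, myosin II and septins together in the ring. Anln (probe set 10591781) read 4.41, 4.49 and 3.98 in KO livers and 4.67, 4.87 and 4.85 in WT livers. No KO array reached the lowest WT array, and KO replicate 3 was the lowest of all. Anln had the smallest p of the 10 genes, with a log2 fold change of -0.50 (standard error 0.15, 95% interval -0.85 to -0.16, limma adjusted p = 0.377, unadjusted 0.00977). The fold change was -0.35 without KO replicate 3 and -0.28 after a second quantile normalization, where the KO arrays still lay below the WT arrays, as did those of 7.54% of all genes. Ect2 (probe set 10497520) read 3.90, 4.60 and 3.74 in KO livers and 3.74, 4.24 and 3.99 in WT livers. KO replicate 2 was the highest array and the other KO arrays lay inside the WT range. The log2 fold change of Ect2 was 0.088 (standard error 0.23, 95% interval -0.44 to 0.62, limma adjusted p = 0.946), it was -0.17 without KO replicate 2 and -0.038 without WT replicate 1, and it was 0.31 after a second quantile normalization.

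Prc1 crosslinks antiparallel microtubules and sets up the midzone, and Kif20a (MKLP2) is the kinesin that carries the chromosomal passenger complex there. Kif20a (probe set 10454709) read 2.43, 2.73 and 2.70 in KO livers and 2.84, 3.02 and 3.06 in WT livers. The groups did not overlap, with a gap of 0.11 between KO replicate 2 and WT replicate 1. The log2 fold change was -0.35 (standard error 0.12, 95% interval -0.63 to -0.070, limma adjusted p = 0.448, unadjusted 0.0204). It was -0.20 after a second quantile normalization. The groups then stayed apart only narrowly, with KO replicate 3 at 2.82 and WT replicate 3 at 2.84. On that scale 7.54% of all genes had every KO array below every WT array. Prc1 (probe set 10554445) read 5.07, 5.21 and 4.75 in KO livers and 5.22, 5.004 and 5.11 in WT livers. The 2 highest arrays were WT replicate 1 and KO replicate 2, and only KO replicate 3 lay clearly below the rest. Prc1 had a log2 fold change of -0.099 (standard error 0.14, 95% interval -0.42 to 0.22, limma adjusted p = 0.891). The sign turned, to 0.13 after a second quantile normalization and to 0.034 without KO replicate 3.

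The chromosomal passenger complex joins the kinase Aurkb (aurora B) to the scaffold Incenp and the targeting subunits Birc5 (survivin) and Cdca8 (borealin). Aurkb (probe set 10377405) read 2.43, 3.05 and 2.73 in KO livers and 2.41, 2.98 and 3.33 in WT livers, a log2 fold change of -0.17 (standard error 0.24). Incenp (probe set 10465861) read 3.14, 3.46 and 2.91 in KO livers and 2.68, 3.15 and 3.20 in WT livers, a log2 fold change of 0.16 (standard error 0.18). The groups overlapped for both genes, and WT replicate 1 was the lowest array for both. Birc5 (probe set 10382998) read 5.06, 5.37 and 4.72 in KO livers and 4.51, 5.25 and 5.97 in WT livers, a log2 fold change of -0.20 (standard error 0.34). Cdca8 (probe set 10516246) read 3.80, 4.09 and 3.59 in KO livers and 3.41, 3.96 and 4.02 in WT livers, a log2 fold change of 0.031 (standard error 0.19). For Birc5 the 3 WT arrays spanned 1.46 log2 units, the widest range of any member in either group, and the KO arrays lay within it. No subunit passed the threshold, with limma adjusted p from 0.862 to 0.979, and the 95% intervals ran from -0.97 to 0.58 for Birc5 and from -0.41 to 0.48 for Cdca8.

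Scaling and single arrays turned the sign of these 4 subunits. After a second quantile normalization the fold changes were 0.36 for Incenp, 0.27 for Cdca8, 0.021 for Birc5 and 0.0037 for Aurkb. Incenp then read 3.29, 3.47 and 3.05 in KO livers and 2.82, 2.97 and 2.95 in WT livers. Every KO array thus lay above every WT array on that scale, as did 5.37% of all genes, and the adjusted p was 0.525 with limma (0.525 to 0.992 over all alternatives). Without WT replicate 1 the fold change of Incenp was -0.0059 and that of Cdca8 -0.16. Without WT replicate 3 those of Birc5 and Aurkb were 0.17 and 0.041. Anln, Kif23, Kif20a and Racgap1 read below 0 under every alternative that gave them a value, while Ect2, Prc1, Aurkb, Incenp, Birc5 and Cdca8 turned sign in at least 1.

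**Figure D3:**
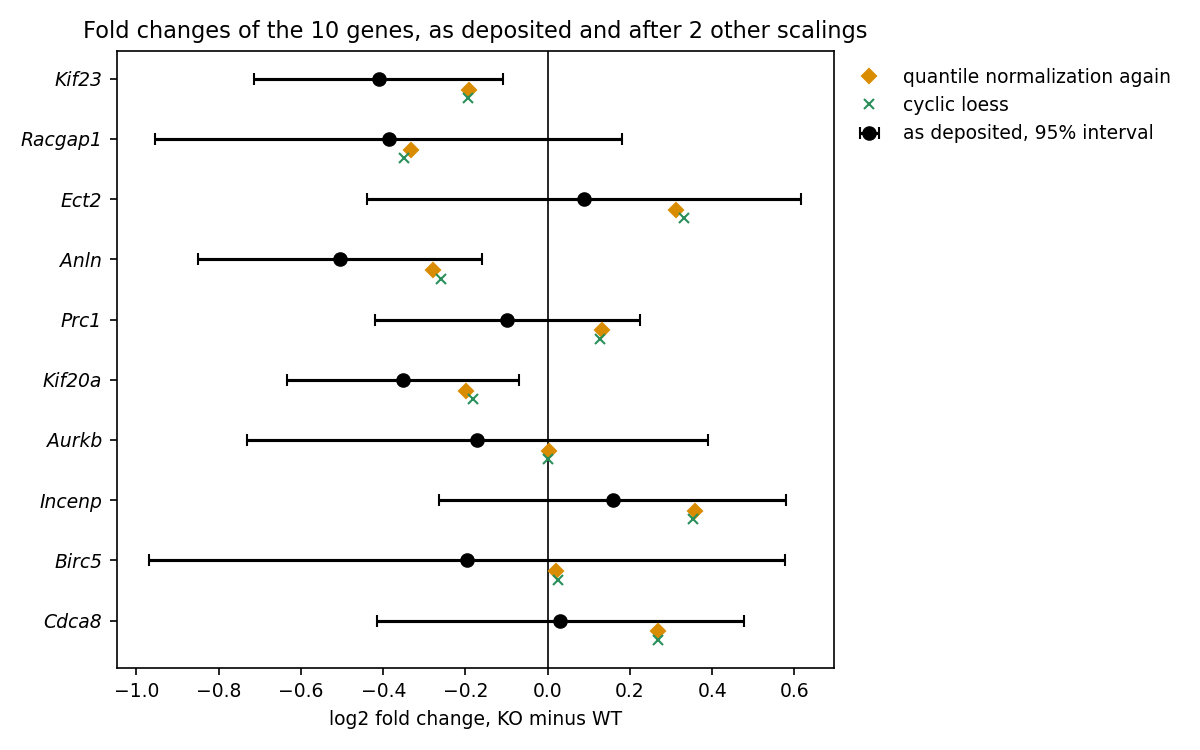
Log2 fold change of KO minus WT (x axis) for each gene, with points and bars for the deposited values and their 95% limma intervals, and diamonds and crosses for 2 other scalings. The intervals of Kif23, Anln and Kif20a exclude 0 as deposited, and both other scalings move all 10 estimates to higher values than deposited, to between -0.35 and 0.36. Centring on array medians, not drawn, went the other way, with a median of -0.22 over the 10 genes against -0.18 as deposited.

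Averaged by role, the centralspindlin genes had a mean level of 3.41, 3.42 and 3.17 in KO livers and 3.43, 3.72 and 4.05 in WT livers. The midzone genes Prc1 and Kif20a averaged 3.75, 3.97 and 3.72 in KO livers and 4.03, 4.01 and 4.08 in WT livers. KO arrays lay below WT arrays for both of these averages, narrowly so for each. How often the averages of other pairs of genes separate in this way was not counted. Ect2 and Anln together averaged 4.15, 4.54 and 3.86 in KO livers and 4.20, 4.56 and 4.42 in WT livers, with overlap. The 4 passenger genes averaged 3.61, 3.99 and 3.49 in KO livers and 3.25, 3.84 and 4.13 in WT livers, and the WT arrays lay on both sides of the KO arrays. The difference of the averages was -0.40 for centralspindlin, -0.23 for the midzone, -0.21 for Ect2 and Anln and -0.044 for the passenger complex. After a second quantile normalization these were -0.26, -0.034, 0.018 and 0.16 in the same order, so the sign of Ect2 with Anln and of the passenger complex turned. The centralspindlin average includes the dim gene Racgap1, with -0.39 as deposited and -0.33 on that scale. As deposited, Racgap1 had -0.074 without WT replicate 3. Whether the differences of the averages differ from one another was not tested.

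The arrays of 1 genotype differed from each other in the same order for most members. KO replicate 2 was the highest KO array for 9 of the 10 genes, all but Kif23, and KO replicate 3 the lowest for 8, all but Kif20a and Aurkb. WT replicate 1 was the lowest WT array for 9, all but Prc1. For Ect2, Aurkb, Incenp, Birc5 and Cdca8 it was the lowest of all 6 arrays. Part of this order was shared by the arrays as a whole. Their 90th percentile was highest in KO replicate 2 (3.82) among KO arrays and lowest in WT replicate 1 (3.68) among WT arrays. KO replicate 3 (3.68) did not have the lowest 90th percentile of the KO arrays. The share of all genes with the order of the members was not counted. Across the 10 genes the mean level was 3.71, 3.98 and 3.55 in KO livers and 3.63, 3.99 and 4.16 in WT livers, with WT replicate 1 below 2 of the KO arrays. Single WT arrays moved the group as a whole. Without WT replicate 1 all 10 genes read lower in KO, with a median of -0.42 (and -0.37 over genes whose mean level was 3 or more). Without WT replicate 3, 5 genes did, with a median of -0.016 (-0.18 over those genes). The median of the 10 was -0.34 without KO replicate 2 and -0.0995 without KO replicate 3.

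**Figure D4:**
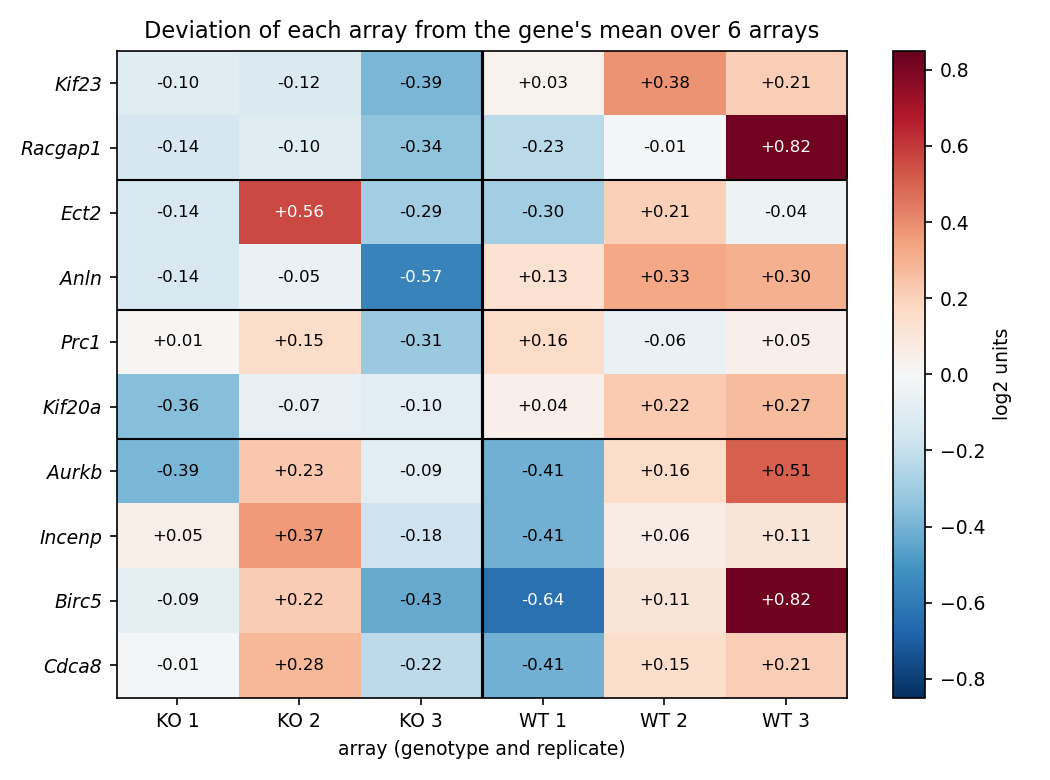
Deviation of each array from the mean of that gene over the 6 arrays (colour and printed value, log2 units), KO arrays left of the line and WT arrays right of it, genes grouped by role. WT replicate 1 is below the mean in the 4 passenger genes (-0.41, -0.41, -0.64 and -0.41) and above it in Kif23, Anln, Prc1 and Kif20a.

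Genes outside the 10 whose centred values over the 6 arrays were most like the average of the 10 were Nono, Prelid1, Rps29, Edem3 and Faf1, among 2538 genes whose mean level was 3 or more. The root mean square difference was 0.045 log2 units for Nono and 0.070 for Faf1. Among the members it was 0.12 for Cdca8, the closest to the average, and 0.28 for Birc5, the farthest.

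The wider division machinery was set beside the 10 genes with lists drawn from knowledge of the pathway, with earlier results of these data known. Of 13 other midzone and midbody genes, 0 passed the threshold and 4 were lower at an unadjusted limma p under 0.05, all 4 among the 9 whose mean level was 2 or more, where 22.0% of all such genes were lower. Of the 4, only Kif14 kept that p after a second quantile normalization. Kif14, a kinesin that binds Prc1 and citron kinase, read 3.93, 4.11 and 3.99 in KO livers and 4.28, 4.67 and 4.56 in WT livers, with a log2 fold change of -0.49 (limma adjusted p = 0.317). Aurka, the spindle pole kinase, had -0.45, Kif4, a chromokinesin that controls midzone length, had -0.57, and Nusap1, a microtubule binding protein of the spindle, had -0.62. The list had a median of -0.18, and -0.11 after a second quantile normalization. Its summed level was 42.9 to 46.5 in KO and 47.2 to 50.1 in WT livers, without overlap. Of 10 centromere partners of the passenger complex, 0 passed, 3 were lower and 1 higher at an unadjusted p under 0.05, and after a second quantile normalization 1, Haspin, was lower and 0 higher. Of the 7 whose mean level was 2 or more, 2 were lower as deposited, where 22.0% of all such genes were. The shugoshin genes Sgo1 and Sgo2a, which guard centromeric cohesion, had -0.51 and -0.61, and Haspin, the histone H3 kinase whose mark recruits the complex through survivin, had -0.60. Haspin read 1.56, 1.25 and 0.94 in KO livers and 1.54, 1.86 and 2.14 in WT livers, near the array medians. Psrc1, which encodes a spindle protein, had 0.27. With 1 array left out, the number lower at that p ran from 1 (without KO replicate 3 or WT replicate 2) to 5 (without KO replicate 1 or WT replicate 3) for the midzone and midbody list and from 2 (without WT replicate 3) to 4 (without KO replicate 2 or WT replicate 1) for the centromere list. The list median was -0.29, and -0.098 after a second quantile normalization.

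Genes of the contractile ring and of RhoA had fold changes on both sides of 0. Of the 11 whose mean level was 2 or more, 9 were below 0, where 76.5% of all such genes were. Of 16 measured, 0 passed the threshold and 0 had an unadjusted limma p under 0.05. After a second quantile normalization 2 were higher at that p, the formin gene Diaph3 (0.36, as deposited 0.15) and the myosin heavy chain gene Myh9 (0.30, as deposited 0.14), both named because they crossed it. With WT replicate 1 left out 3 were lower, with KO replicate 3 or WT replicate 3 left out 1 was lower, and with WT replicate 2 left out 1 was higher. Arhgap11a, a RhoA regulator made by dividing cells, had a log2 fold change of -0.52, the actin binding profilin gene Pfn1 had -0.40, the citron kinase gene Cit 0.28 and the exchange factor gene Arhgef2 0.15, with limma adjusted p from 0.648 to 0.743. Cit and Arhgef2 had mean levels under 2. The list had a median of -0.068, and 0.049 after a second quantile normalization. Of the 7 septins measured, filament proteins that anillin recruits, 0 passed and 0 had an unadjusted p under 0.05. Septin7 had -0.37, Septin6 had 0.086, and Septin2 and Septin8 had -0.074 and -0.035, which turned to 0.15 and 0.0096 after a second quantile normalization. The septin median was 0.0033, and 0.11 on that scale.

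For abscission, the final cut that ESCRT-III filaments make at the midbody, 0 of 20 genes passed and 2 were lower at an unadjusted limma p under 0.05, where 6.44% of all genes were. Both were among the 13 whose mean level was 2 or more, where 22.0% of all such genes were lower. Tsg101, an ESCRT-I subunit that the midbody protein Cep55 recruits, read 3.24, 3.41 and 3.14 in KO livers and 3.56, 3.66 and 3.73 in WT livers, a log2 fold change of -0.38 (limma adjusted p = 0.368). Chmp1b, an ESCRT-III subunit, had -0.52, Spast, the microtubule severing enzyme spastin, -0.32, and Chmp4c, the subunit of the abscission checkpoint, -0.21. In this list 19 of 20 genes had a log2 fold change below 0, and 14 of 20 did after a second quantile normalization, where 0 were lower at that p. Of the 13 whose mean level was 2 or more, 12 had a fold change below 0 as deposited, where 76.5% of all such genes did. Between 1 (without WT replicate 2) and 4 (without KO replicate 1) were lower at that unadjusted p with 1 array left out. The list median was -0.16 and became -0.095 after a second quantile normalization.

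Of 23 genes that mark proliferation in general, 0 passed and 9 were lower at an unadjusted limma p under 0.05, all 9 among the 21 whose mean level was 2 or more, where 22.0% of all such genes were lower. On renewed quantile normalization 5 were lower and 1 higher. The list had a median of -0.24, and -0.11 on that scale. Rrm1, the large subunit of ribonucleotide reductase, read 6.10, 6.13 and 5.99 in KO livers and 6.71, 6.77 and 7.001 in WT livers. Its log2 fold change was -0.75 (limma adjusted p = 0.142), and it passed without WT replicate 1. With 1 array left out, 5 (without KO replicate 1 or WT replicate 2 or 3) to 13 (without WT replicate 1) of the 23 were lower at that unadjusted p. Rrm2, the other subunit, had -0.75, Ccna2, which encodes cyclin A2, -0.61, and Pcna, the sliding clamp of DNA polymerase, -0.50. Of the 9, Rrm1, Rrm2, Ccna2 and Pcna (-0.60, -0.57, -0.53 and -0.55) and Ccnb2 kept an unadjusted p under 0.05 after a second quantile normalization, and Mcm2, Mcm4, Mcm5 and Cdk1 lost it, as Anln, Kif23 and Kif20a did. Whether these genes differ more between the genotypes than the 10 members do was not tested.

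**Figure D5:**
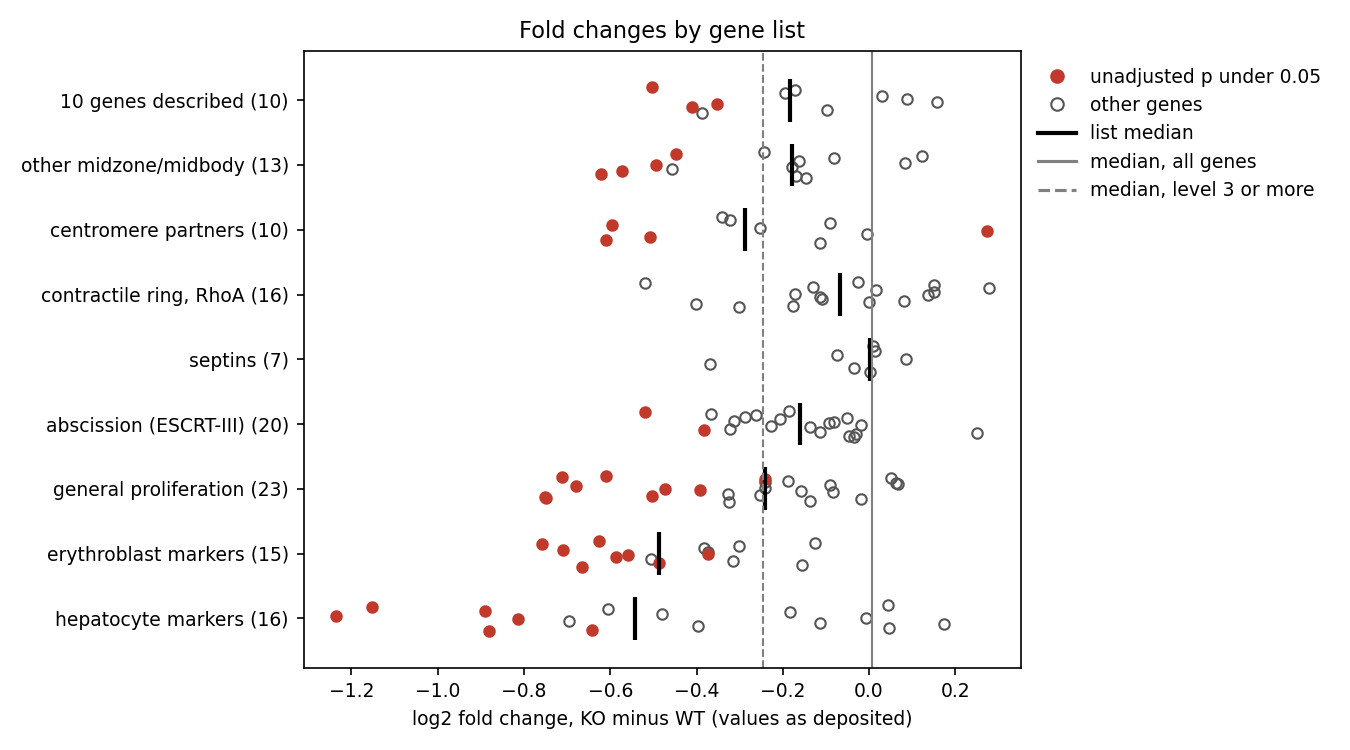
Log2 fold change of KO minus WT (x axis, values as deposited) of every measured gene in 9 lists, with the number of genes in brackets. Filled points have an unadjusted limma p under 0.05, black bars are list medians, and grey lines are the medians of all genes (solid, 0.0057) and of genes whose mean level was 3 or more (dashed, -0.25); ring and septin genes centre near the solid line.

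The 15 erythroblast markers measured had a median log2 fold change of -0.49, 8 of them were lower at an unadjusted limma p under 0.05, and 0 passed. All 8 were among the 14 whose mean level was 2 or more, where 22.0% of all such genes were lower. All 15 had a fold change below 0 as deposited, as did 76.5% of genes whose mean level was 2 or more. After a second quantile normalization 13 of the 15 did. Genes whose mean level was 3 or more had a median of -0.25. The summed level of the erythroblast markers was 60.1 to 65.4 in KO and 66.2 to 71.9 in WT livers, without overlap. Epb42 (protein 4.2) had -0.76, Nfe2 -0.56, Alas2 -0.63 and Fech -0.71. The 16 hepatocyte markers had a median of -0.54, 6 were lower at that p, and their summed level was 83.8 to 98.8 in KO and 97.0 to 104 in WT livers. All 6 were among the 15 whose mean level was 2 or more, where 22.0% of all such genes were lower. Apoh had -1.24, Vtn -0.88, Ahsg -1.15 and Apoa1 -0.89, those with the smallest p, while 3 of the 16 were above 0 (Krt18 with 0.17, Trf with 0.046 and Afp with 0.045, of which Afp turned to -0.099 after a second quantile normalization). The hepatocyte median was -0.21 without KO replicate 3 and -0.77 without KO replicate 2. On renewed quantile normalization the medians were -0.28 for the erythroblast and -0.43 for the hepatocyte markers. On that scale 6 erythroblast and 6 hepatocyte markers were lower at that p, where 4.66% of all genes were. The hepatocyte marker Krt18 was higher at that p, where 3.05% of all genes were. With 1 array left out, 6 (without KO replicate 3) to 11 (without WT replicate 1) erythroblast markers and 2 (without WT replicate 2 or 3) to 9 (without KO replicate 1) hepatocyte markers were lower at that p. KO replicate 3 had the lowest sum of both lists and KO replicate 2 the highest sum among KO arrays. Among WT arrays replicate 1 had the lowest sum and replicate 3 the highest. This is the same order as for the mean level of the 10 genes within each genotype. The sums of the abscission and general proliferation lists had that order within each genotype too, and those of the remaining lists did not. The part of cell composition in the values of the 10 genes was not tested.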

How the data were processed

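Total RNA of 6 fetal livers was extracted with Trizol, biotin-labelled and hybridised to Affymetrix MoGene 1.0 ST arrays, per the labels' protocols. The authors deposited 1 value per probe set and array, with RMA as the tool according to the submitters' processing notes (no version). The distributions of the deposited arrays differ, which RMA with its usual quantile step would not leave. No source states the log base; the authors' deposited values were taken for log2, since base e would put array maxima at 127417 or more, above what such a scanner records. Arrays have no read depth, and 3 arrays a group limit the precision.

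Of 28853 probe sets, 21789 had exactly 1 gene symbol in GEO's platform annotation, and each of 19938 genes kept its brightest probe set by mean over the 6 arrays. The genotypes were tested by a two-sided limma fit without trend or covariates (version 3.58.1, R 4.3.3), with Benjamini-Hochberg over all genes, threshold 0.05. Lists were described by counts and medians. On simulated data for this comparison (19938 genes, 10 runs) 73.3% of genes changed by 1 and 96.3% of those changed by 2 (log2) were recovered, with 3.62% false calls. Each run changed 200 genes and drew noise separately for each gene, without shifts that genes of 1 array share. These rates need not hold for the deposited arrays. Changes as small as those of the 10 members were not simulated. Named genes were Tmod3, the 10 members, up to 4 genes per list by smallest p, and the 5 genes of most similar profile; Alb and Tfrc were added as tissue checks. The members and lists were chosen with earlier results of these data known. Promoters came from a RefSeq table with entries for 7 of the 10 genes.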

Additional observations from a re-analysis of the deposited data

How the results depend on the processing

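Recomputation with other normalizations, summaries, variance models and with each array left out gave 0 of the 10 genes an adjusted p under 0.05 in every setting run. The number of the 10 at a lower unadjusted p under 0.05 was 3 as reported, 0 after quantile normalization again, 0 after cyclic loess, 1 (Anln) with an intensity trend and robust fitting, and between 1 and 4 when 1 array was left out (1, Anln, without WT replicate 2; 4 without WT replicate 1, which adds Racgap1). Centring on array medians and array weights each kept 3 at that p. Of all 19938 genes, 1284 were lower at that p as reported, 1507 with centring on array medians and 1980 with array weights. The count over all genes was 929 after quantile normalization again, 923 after cyclic loess and 992 with an intensity trend and robust fitting. With 1 array left out it ran from 788 (without WT replicate 2) to 2237 (without WT replicate 1). The number of the 10 with a fold change below 0 was 7 as reported, 4 after quantile normalization again and after cyclic loess, and 5 to 10 with 1 array left out. It was 8 with centring on array medians and 9 with array weights. The median of the 10 was -0.18, with -0.42 to -0.016 when 1 array was left out, 0.012 after quantile normalization again and 0.013 after cyclic loess. It was -0.22 with centring on array medians and -0.29 with array weights. Over genes whose mean level was 3 or more the median was -0.25 as reported, -0.28 with centring on array medians and -0.32 with array weights.

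Signs turned for 6 genes. After quantile normalization again and after cyclic loess, Prc1 was 0.13 and 0.13, Aurkb 0.0037 and 0.00041, and Birc5 0.021 and 0.025. With array weights Ect2 was -0.014 and Cdca8 -0.071, and with centring on array medians Cdca8 was -0.0058. With 1 array left out the ranges were -0.17 to 0.26 for Ect2, -0.20 to 0.034 for Prc1, -0.42 to 0.041 for Aurkb, -0.0059 to 0.29 for Incenp, -0.56 to 0.17 for Birc5 and -0.16 to 0.15 for Cdca8. The cause was not tested. The filter on dim genes gave no value for Racgap1, whose mean level is under 2. In the fit with that filter 2 members, Anln and Kif23, were lower at an unadjusted limma p under 0.05, as were 702 of 4656 genes. Kif20a had an unadjusted limma p of 0.0779 there.

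With the replicate number as a block, Tmod3 kept -3.06 but its adjusted p was 0.0897, 0 genes passed in all in place of 3, and no call among the 10 changed. Deviations of KO and WT arrays of the same number correlated at 0.11, 0.057 and -0.11, so the numbers were not taken to pair embryos. With 1 array left out, Tmod3 was -3.41 to -2.88 (limma adjusted p 0.00169 to 0.255) and lost its call without KO replicate 1 or 3 or WT replicate 2 or 3. Over all genes, 0 to 95 passed with 1 array left out (95 without WT replicate 1), 6 after quantile normalization again, 8 after cyclic loess and 11 with array weights. Among the wider lists 0 to 1 gene passed with 1 array left out (Rrm1), and among the cell type markers 0 to 1 (Rhag, named here because it passed), in both cases without WT replicate 1.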

Other observations

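The remaining marker lists give the other cell types of the liver. Of 13 macrophage markers, 3 were lower at an unadjusted limma p under 0.05 and 0 passed, with a median log2 fold change of -0.29; Lyz2 had -0.75, Spic, the transcription factor of iron recycling macrophages, -0.85, C1qc -0.31 and Vcam1 -0.46, while 3 of the 13 were above 0 as deposited. All 3 markers lower at that p were among the 7 whose mean level was 2 or more, where 22.0% of all such genes were lower. The count lower at that p was 1 after a second quantile normalization and 0 after cyclic loess. It ran from 0 (without KO replicate 3 or WT replicate 3) to 6 (without WT replicate 1) with 1 array left out, was 1 without KO replicate 1 or WT replicate 2, and the median ran from -0.40 to -0.14. The summed level of the macrophage list was 21.2 to 27.4 in KO and 26.4 to 31.7 in WT livers. Of 12 endothelial markers, 9 were above 0 and 2 were higher at that p (Ramp2 with 0.44 and Oit3 with 0.41), where 2.59% of all genes were. Flt1 and Kdr had 0.21 and 0.18. Only 3 of the 12 had a mean level of 2 or more, and 1 of those was below 0. The summed level of the endothelial list was 21.4 to 22.8 in KO and 20.0 to 21.1 in WT livers. Of 10 stromal markers, 8 were above 0 and 1 was higher at that p. Only 2 of the 10 had a mean level of 2 or more, and both were below 0. Col1a1, a collagen chain, had 0.38 and read 2.18, 2.12 and 2.10 in KO livers and 1.74, 1.73 and 1.80 in WT livers, while Pdgfra had 0.21, Des 0.16 and Col1a2 0.18. The 2 stromal markers below 0 were Dcn with -0.21 and Lum with -0.17, which turned to 0.035 and 0.062 after a second quantile normalization. Of 8 megakaryocyte markers, the platelet chemokine gene Ppbp had -0.72 (unadjusted p under 0.05), Gp9 -0.29, Pf4 -0.10 (0.0998 after a second quantile normalization) and Gp5 -0.089. The other 4 were above 0, and the megakaryocyte median was -0.044. Of 10 neutrophil markers, 0 had an unadjusted p under 0.05 (2 were lower without KO replicate 1), 6 were below 0 and 4 above it, and Ltf had 0.20, Csf3r -0.11, Ngp -0.20 and Camp -0.13. No gene of these 5 lists passed over all genes with limma.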
